A study of Mus musculus with 15 samples.

Results

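The Bcl-2 family, the caspases and the rest of the cell death machinery were described through 34 genes, taken by symbol from the gene names on the array as death genes that are not classic targets of the tumour suppressor p53. All 34 had at least 1 of the 55681 distinct probes of the array. A gene was tested where a probe stood well above background on at least 4 of the 15 arrays, which 27 of the 34 did, among 22908 genes tested in all. The 7 members that did not pass this filter were Bik, Hrk, Casp1, Casp4, Casp12, Tnfsf10 and Fasl, and they are given separately. Of the 27 tested, 26 were well above background on all 15 arrays and Casp14 on 14.

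Total RNA came from LSZ2 and LSZ4, cultured mouse lines of non-small cell lung cancer, after infection with virus carrying a short hairpin RNA. The control hairpins were shGFP in the vector pLKO.1 and shLacZ in LL37, which match no mouse gene, and the hairpins shSiva1 and shSiva2 against Siva were in pLKO TRC2.0. LSZ2 with shGFP had 1 array and each of the other 7 groups had 2, which gave 7 control and 8 shSiva arrays. All infected cells but those with shLacZ were held in puromycin for 3 days, and all were harvested 2 days after plating. The labels do not say whether replicates were separate cultures, and p-values here speak only to the spread among the 15 samples. The control arrays shared 1 slide and the shSiva arrays the other, and slide, vector and Siva hairpin therefore cannot be told apart. Hairpins also differed in slide row and lines in slide column, so that position on the slide is one with them.

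Signal at the 75th percentile of an array spanned 354 to 871 intensity units, with the LSZ4 shGFP arrays dimmest (354 and 381). The share of spots above background ranged from 49.0% to 60.6%, and saturation was seen for 0 spots. The array count, 15, limits the precision of every value. Over the 27 members the median gap between the replicates of a group, on the log2 scale, was 0.60 in LSZ4 with shLacZ, 0.50 with shSiva1, 0.44 with shSiva2 and 0.07 with shGFP. In LSZ2 it was 0.31 with shSiva1, 0.17 with shLacZ and 0.07 with shSiva2. Of 6 epithelial markers 5 were well above background on all 15 arrays. Of 7 alveolar and airway markers 1 was on all arrays, and Nkx2-1, Sftpa1, Sftpc and Foxj1 were on none. Of 7 leukocyte markers 2 were on all arrays (Cd3e and Itgam) and Lyz2 on none; Pecam1 and Kdr were on all arrays and the other 2 endothelial markers, Cdh5 and Tek, on none; and of 6 fibroblast markers Col1a2 was on all and Pdgfra, Pdgfrb and Dcn on none. Other markers were well above background more often in one arm: Adgre1 on 3 of 7 control and 7 of 8 shSiva arrays, Cd68 on 0 and 3, Ptprc on 3 and 5, Col3a1 on 2 and 6, Col1a1 on 1 and 4, and Sftpb on 7 and 4. Scgb1a1 was well above background on 4 control and 4 shSiva arrays. The summed signal of each list, as log2, overlapped between the arms: 3.61 to 3.95 on control and 3.46 to 3.90 on shSiva arrays for leukocytes, -3.00 to -1.88 and -2.90 to -1.56 for fibroblasts, 2.25 to 3.87 and 2.02 to 3.55 for endothelium, -2.15 to -0.86 and -2.66 to -0.42 for alveolus and airway, and 10.65 to 12.03 and 10.64 to 11.73 for epithelium. Their part in the results below was not tested.

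As background, apoptosis runs through a pair of connected routes. In the mitochondrial route the anti-death proteins Bcl2, Mcl1 and Bcl2l2 hold effectors such as Bak1 in check until BH3-only proteins such as Bid, Bad, Bmf and Bcl2l11 displace them, after which cytochrome c (Cycs) leaves the mitochondrion and assembles Apaf1 and Casp9 into the apoptosome. In the receptor route, ligands such as Fasl, Tnfsf10 and tumour necrosis factor bind receptors that recruit the adaptors Fadd and Tradd, the kinase Ripk1 and Casp8, which Cflar inhibits. Where caspase-8 is held back, Ripk1 can activate Ripk3 and necroptosis. Siva itself was first described as a partner of a receptor of the tumour necrosis factor family.

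Values below are log2 signals less the 75th percentile of their array, so that a difference of 1 is a 2-fold difference, and levels of different probes cannot be compared. A gene passed the test where its p-value, adjusted by Benjamini-Hochberg over all 22908 genes, was under 0.05. The hairpins' target was checked first. Siva1 read 5.53 in LSZ2 with shGFP, 5.52 and 5.83 with shLacZ, 2.98 and 3.29 with shSiva1 and 3.83 and 3.72 with shSiva2. In LSZ4 Siva1 read 6.75 and 6.75 with shGFP, 5.50 and 6.22 with shLacZ, 2.56 and 3.40 with shSiva1, and 3.70 and 4.35 with shSiva2. On each of the 8 shSiva arrays Siva1 was below all same-line controls.

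**Figure D1:**
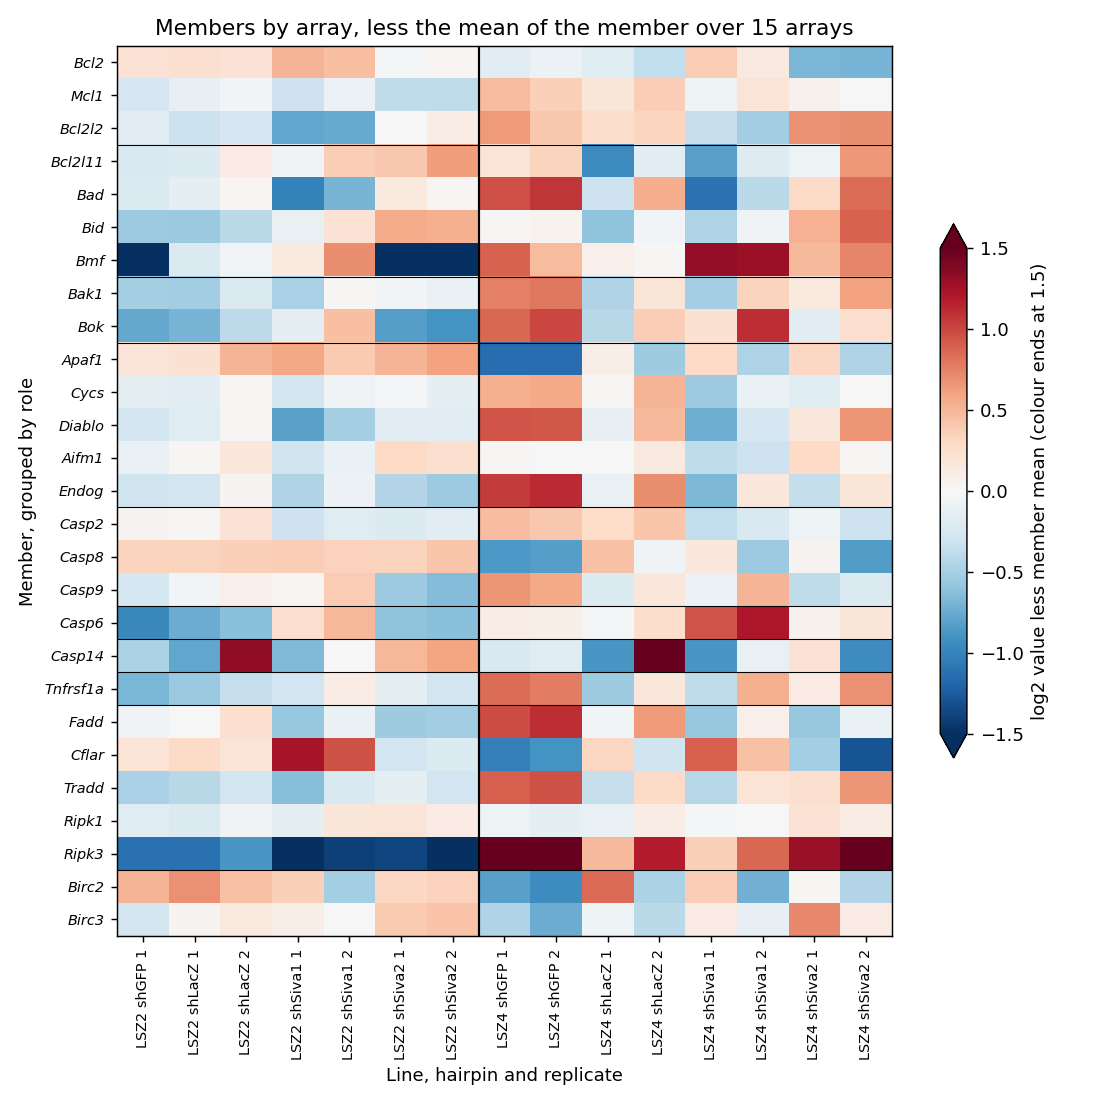
Each row is 1 of the 27 tested members, grouped by role, and each column 1 array; colour is the log2 value less the member's mean over the 15 arrays, and colours end at 1.5. Ripk3 separates the LSZ2 arrays (left) from the LSZ4 arrays (right), and in LSZ4 the shGFP arrays stand apart from the shLacZ arrays for many members.

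With a Siva hairpin, 2 of the 27 members were lower and 0 were higher than with a control hairpin over both lines. They were Casp2, an initiator caspase that acts in the PIDDosome complex, and Fadd, the adaptor that links death receptors to caspase-8. These 2 members are 7.41% of the 27, and 9.55% of all 22908 genes passed this test (4.39% higher, 5.16% lower). The median difference of the members was -0.07, beside -0.11 for all genes tested, and 12 of the 27 differences were above 0. In bulk RNA a smaller share of cells that express a gene and less RNA of it per cell cannot be told apart.

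Casp2 read 4.54 with shGFP and 4.51 and 4.71 with shLacZ in LSZ2, where shSiva1 gave 4.18 and 4.31 and shSiva2 4.29 and 4.32. In LSZ4 it read 4.95 and 4.90 with shGFP and 4.76 and 4.91 with shLacZ, but 4.12 and 4.27 with shSiva1 and 4.42 and 4.18 with shSiva2. Casp2 was the only member with each of the 8 shSiva arrays below all same-line controls, a pattern not counted over all genes. Over both lines its mean was 4.75 ± 0.18 (SD, n = 7) with control and 4.26 ± 0.095 (SD, n = 8) with Siva hairpins. The fitted difference was -0.49 (SE 0.11, adjusted p = 0.00955), which is 71.4% of the control level, or -0.38 relative to the median of all genes.

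Fadd read 1.73 with shGFP, 1.79 and 2.02 with shLacZ, 1.22 and 1.69 with shSiva1 and 1.26 and 1.26 with shSiva2 in LSZ2. In LSZ4 the Fadd values were 2.76 and 2.90 with shGFP, 1.75 and 2.42 with shLacZ, 1.22 and 1.86 with shSiva1, and 1.22 and 1.69 with shSiva2. Here 7 of 8 shSiva arrays were below all same-line controls, and the exception was LSZ4 shSiva1 replicate 2, which overlapped LSZ4 shLacZ replicate 1. Fadd differed by -0.74 (SE 0.18, adjusted p = 0.0188), or 59.7% of the control level, and by -0.64 relative to the median of all genes. Both calls held with any single array left out (highest adjusted p 0.0258 for Casp2 and 0.0432 for Fadd). With line and hairpin group as a random block, which treats replicates of a group as related, neither passed (adjusted p = 0.0549 for Casp2 and 0.0939 for Fadd), and the number of members that passed was 4 without LSZ4 shLacZ replicate 1, where 15.8% of all genes passed.

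The stretch just before the start of Casp2 and of Fadd, the members that were lower over both lines, is shown here so that their promoters can be set side by side. The 250 bases are from RefSeq on GRCm38.p6, at chr6:42264735-42264984 on the plus strand for Casp2 and chr7:144582442-144582691 on the minus strand for Fadd. They are printed 5′ to 3′ with the GC box (GGGCGG) and the CCAAT box (CCAAT), on either strand, in capitals.
Casp2 promoter: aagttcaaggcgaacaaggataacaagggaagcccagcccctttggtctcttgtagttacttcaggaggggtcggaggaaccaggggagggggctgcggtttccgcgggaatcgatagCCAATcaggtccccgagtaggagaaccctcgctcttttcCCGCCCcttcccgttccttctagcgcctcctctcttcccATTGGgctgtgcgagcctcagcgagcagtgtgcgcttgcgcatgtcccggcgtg
Fadd promoter: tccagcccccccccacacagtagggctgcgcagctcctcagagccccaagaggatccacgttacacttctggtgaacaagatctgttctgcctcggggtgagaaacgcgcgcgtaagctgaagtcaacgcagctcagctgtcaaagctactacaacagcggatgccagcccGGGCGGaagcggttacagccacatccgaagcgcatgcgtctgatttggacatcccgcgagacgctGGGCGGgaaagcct
Casp2 had 1 GC box and 2 CCAAT boxes, and Fadd had 2 GC boxes and no CCAAT box in this window. A match describes letters only. The GC box was in 32.7% and the CCAAT box in 33.8% of all 32851 promoter windows of that length.

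Each line was then taken apart. In LSZ4, Casp2 differed by -0.63 (adjusted p = 0.0187) and Fadd by -0.96 (adjusted p = 0.0416), and these 2 were the members that passed there, 0 higher and 2 lower, with 4.26% of all genes passing (2.37% higher, 1.9% lower). In LSZ2 0 of the 27 passed under limma with the Benjamini-Hochberg adjustment, with 0.925% of all genes passing (0.755% higher, 0.17% lower) and 1 member at an unadjusted p under 0.05. LSZ2 read -0.31 for Casp2 (adjusted p = 0.512) and -0.49 for Fadd (adjusted p = 0.602). The test of the difference between lines passed for 0 of 27 members and 0 of all genes (0%), with 1 member, Cycs, at an unadjusted p under 0.05. The Cycs probe used gave -0.59, and a second one, also well above background on all 15 arrays, gave -0.06. The LSZ4 call of Casp2 was lost without either LSZ4 shGFP array or without LSZ4 shLacZ replicate 2 (highest adjusted p = 0.0623). For Fadd the LSZ4 call was kept only without LSZ2 shSiva1 replicate 2, LSZ4 shLacZ replicate 1, LSZ4 shSiva1 replicate 2 or LSZ4 shSiva2 replicate 2, and was lost without any of the other 11 arrays (highest adjusted p = 0.134). The number of members that passed in LSZ4 ran from 0, without either LSZ4 shGFP array or LSZ4 shLacZ replicate 2, to 7 without LSZ4 shLacZ replicate 1. Of all genes, 2.12% to 2.19% passed in the fits with 0 members and 25.3% in that with 7. Neither call held with the random block (adjusted p = 0.137 and 0.225), that of Casp2 not with quantile scaling (0.121) and that of Fadd not without the filter (0.0787).

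**Figure D2:**
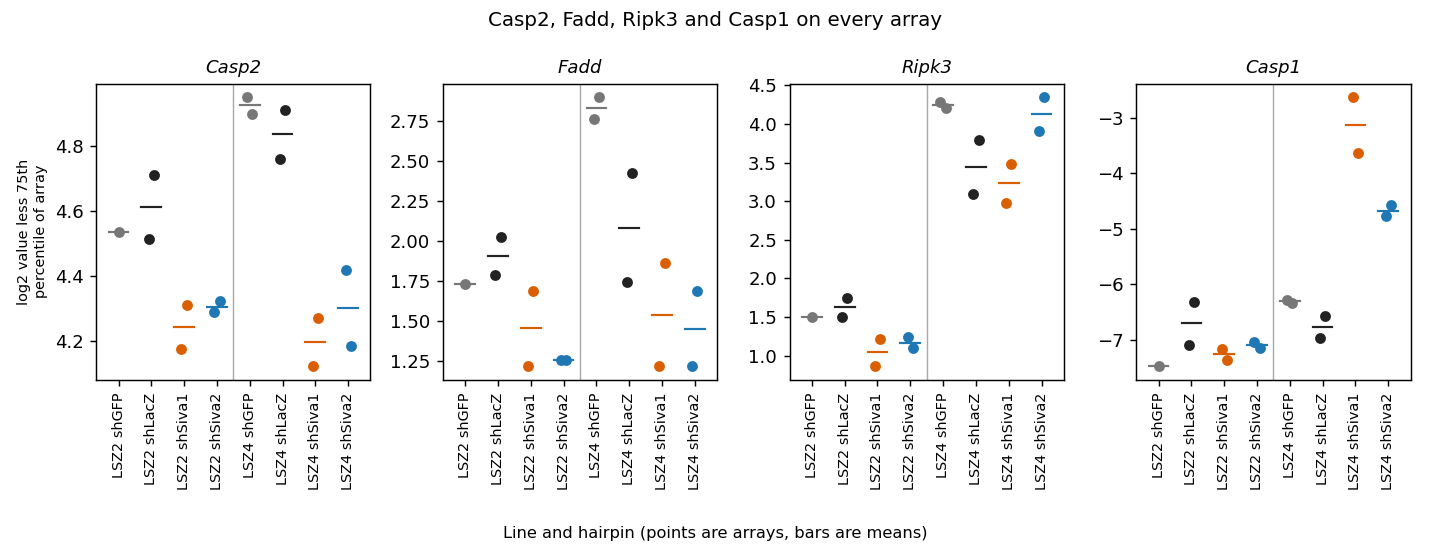
Points are single arrays and bars are group means of the log2 value less the array's 75th percentile, for LSZ2 (left of the line) and LSZ4 (right), with its own vertical axis for each gene. All shSiva points of Casp2 lie below the control points of their line, Ripk3 is higher on every LSZ4 array, and Casp1 was well above background on the 2 LSZ4 shSiva1 arrays alone.

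The Siva hairpins did not give the same picture across the members. Between shSiva2 and shSiva1, 11 of 27 members differed, 5 higher and 6 lower with shSiva2, beside 20.8% of all genes that passed this test (10.9% higher, 9.93% lower). The median difference was 0.15 for the members and 0.14 for all genes. In both lines 6 members had every shSiva2 array above every shSiva1 array and 5 had every shSiva2 array below. How many of all genes separated in this way was not counted, so these counts have no background to be set against. The members that separated were not the same as those that passed. Bcl2l11 separated without passing, and Bok passed while its arrays overlapped in LSZ4. Siva1 itself was higher with shSiva2 by 0.84 (SE 0.27, adjusted p = 0.0413). That call was lost without any of 8 arrays, with a highest adjusted p of 0.129, and was kept only without LSZ2 shGFP, LSZ2 shSiva1 replicate 2, either LSZ4 shGFP array, either LSZ4 shLacZ array or LSZ4 shSiva2 replicate 1.

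Among the anti-death genes, Bcl2l2 and Bcl2 moved in opposite directions. Bcl2l2 read 0.25 and 0.28 with shSiva1 and 1.03 and 1.14 with shSiva2 in LSZ2, around 0.87 with shGFP and 0.70 and 0.78 with shLacZ. In LSZ4 Bcl2l2 read 0.69 and 0.51 with shSiva1 and 1.72 and 1.73 with shSiva2, around 1.67 and 1.44 with shGFP and 1.29 and 1.35 with shLacZ. In each line the controls lay between the hairpins, without overlap. Bcl2l2 was higher with shSiva2 than with shSiva1 by 0.98 (SE 0.13, adjusted p = 8.0e-05), a 1.97-fold difference.

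Bcl2, the founding anti-death member, read 1.46 and 1.40 with shSiva1 and 0.93 and 0.98 with shSiva2 in LSZ2, with 1.17 for shGFP and 1.19 and 1.17 for shLacZ between them. In LSZ4 Bcl2 gave 1.33 and 1.08 with shSiva1 and 0.26 and 0.25 with shSiva2, with 0.80 and 0.87 for shGFP and 0.77 and 0.59 for shLacZ again between them. The hairpins thus lay on opposite sides of the controls for both genes. Bcl2 was lower with shSiva2 than with shSiva1 (-0.71, SE 0.13, adjusted p = 0.00159). Mcl1, the third anti-death member, read between 4.41 and 5.28 on the 15 arrays and the hairpins differed by -0.10 (95% interval -0.39 to 0.18).

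Among the BH3-only genes, Bad and Bid were higher and Bmf was lower with shSiva2. Bad, whose protein binds anti-death proteins when it is not phosphorylated, read 4.49 and 4.80 with shSiva1 in LSZ2 and 5.65 and 5.52 with shSiva2, and the controls read 5.28 with shGFP and 5.36 and 5.53 with shLacZ. In LSZ4 Bad read 4.39 and 5.09 with shSiva1, 5.79 and 6.33 with shSiva2, 6.47 and 6.57 with shGFP and 5.19 and 6.05 with shLacZ. The 4 shSiva1 arrays were the lowest of their lines. Bad differed by 1.13 between the hairpins (SE 0.25, adjusted p = 0.00546).

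Bid, which caspase-8 cleaves to link the receptor route to mitochondria, read 2.50 and 2.82 with shSiva1 and 3.16 and 3.13 with shSiva2 in LSZ2, above 2.06 with shGFP and 2.05 and 2.20 with shLacZ. In LSZ4 it read 2.14 and 2.55 with shSiva1, 3.12 and 3.49 with shSiva2, 2.62 and 2.66 with shGFP and 2.00 and 2.56 with shLacZ. The shSiva2 arrays were the highest of each line, and in LSZ4 the shSiva1 arrays overlapped the controls. Bid was higher with shSiva2 than with shSiva1 by 0.73 (SE 0.19, adjusted p = 0.0157), a call lost without LSZ4 shSiva2 replicate 2 (adjusted p = 0.0554).

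Bmf, a BH3-only gene tied to the cytoskeleton, read -0.87 and -0.33 with shSiva1 and -3.12 and -3.16 with shSiva2 in LSZ2, where shGFP gave -2.66 and shLacZ -1.24 and -1.07. In LSZ4 Bmf read 0.29 and 0.26 with shSiva1, -0.54 and -0.29 with shSiva2, -0.14 and -0.55 with shGFP and -0.94 and -1.00 with shLacZ. All shSiva1 arrays were above all controls of their line, while shSiva2 lay below the controls in LSZ2 and among them in LSZ4. The difference between hairpins was -1.61 (SE 0.41, adjusted p = 0.0123). Bcl2l11, which encodes Bim, read between -2.41 and -0.80 and gave 0.58 between the hairpins, which did not pass (adjusted p = 0.143).

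**Figure D3:**
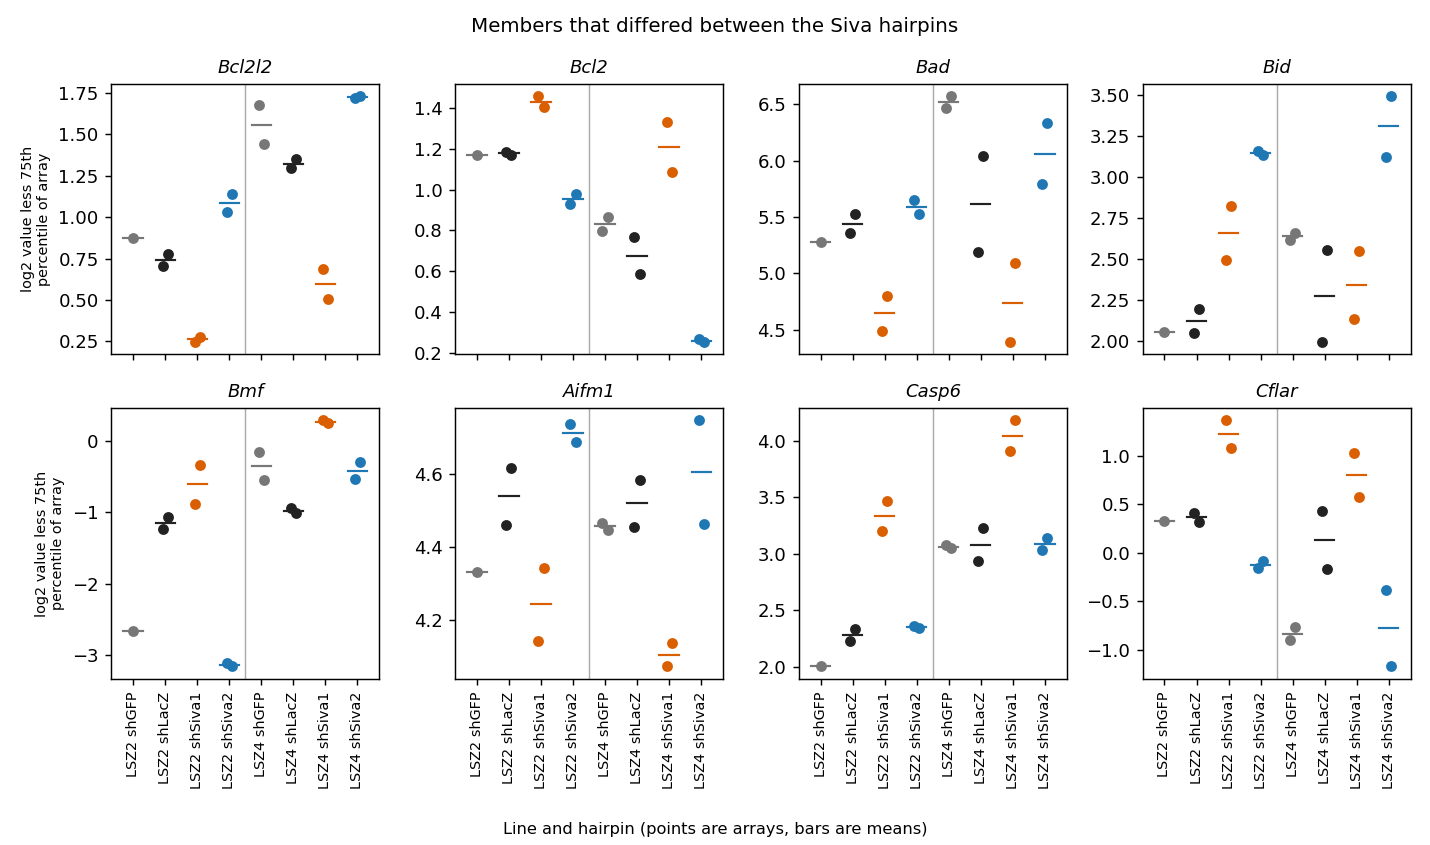
Points are single arrays and bars are group means of the log2 value less the array's 75th percentile for 8 members that differed between shSiva1 (orange) and shSiva2 (blue), with shGFP in grey and shLacZ in black and its own vertical axis for each gene. In both lines every shSiva2 array lies on the same side of every shSiva1 array for each gene, and for Bcl2l2 and Bcl2 the controls lie between them.

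Of the effectors, which permeabilise the mitochondrial outer membrane, Bok read 5.52 and 6.10 with shSiva1 and 4.83 and 4.76 with shSiva2 in LSZ2, where shGFP gave 4.88 and shLacZ 4.96 and 5.25. In LSZ4 Bok read 5.88 and 6.76 with shSiva1, 5.50 and 5.90 with shSiva2, 6.52 and 6.65 with shGFP and 5.24 and 6.03 with shLacZ, and the hairpins overlapped. Bok was lower with shSiva2 by -0.82 (SE 0.27, adjusted p = 0.0471). That call was kept only without LSZ2 shGFP, LSZ4 shGFP replicate 2, LSZ4 shLacZ replicate 1 or LSZ4 shSiva1 replicate 1 (highest adjusted p = 0.127 over the other 11). Bak1 read between 4.0 and 5.32 and its hairpins differed by 0.32 (95% interval -0.23 to 0.86).

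Among the caspases, Casp6 and Casp9 were lower with shSiva2 than with shSiva1. Casp6, an executioner caspase that cleaves lamins, read 3.20 and 3.46 with shSiva1 in LSZ2, above 2.36 and 2.34 with shSiva2, 2.00 with shGFP and 2.23 and 2.34 with shLacZ. In LSZ4 Casp6 read 3.91 and 4.18 with shSiva1, above 3.03 and 3.14 with shSiva2, 3.08 and 3.05 with shGFP and 2.94 and 3.22 with shLacZ. In both lines the shSiva1 arrays stood above all others while shSiva2 lay close to or among the controls. The hairpins differed by -0.97 (SE 0.14, adjusted p = 1.4e-04).

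Casp9, the initiator of the apoptosome, read 2.36 and 2.70 with shSiva1 and 1.78 and 1.67 with shSiva2 in LSZ2, and 2.06 with shGFP and 2.29 and 2.41 with shLacZ. In LSZ4 it read 2.24 and 2.84 with shSiva1, 1.95 and 2.11 with shSiva2, 2.99 and 2.90 with shGFP and 2.13 and 2.50 with shLacZ. The 4 shSiva2 arrays were the lowest of their lines. Casp9 differed by -0.66 (SE 0.20, adjusted p = 0.0293), a call lost without either LSZ2 shSiva1 array, LSZ4 shSiva1 replicate 2, either LSZ2 shSiva2 array or LSZ4 shSiva2 replicate 1 (highest adjusted p = 0.0884). Casp2 and Casp8, the other initiators, differed by 0.08 (95% interval -0.21 to 0.38) and -0.09 (95% interval -0.60 to 0.41).

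Cflar, which encodes the caspase-8 inhibitor cFLIP, read 1.36 and 1.08 with shSiva1 and -0.16 and -0.09 with shSiva2 in LSZ2, around 0.33 with shGFP and 0.41 and 0.32 with shLacZ. In LSZ4 Cflar read 1.03 and 0.57 with shSiva1 and -0.39 and -1.17 with shSiva2, with -0.90 and -0.77 for shGFP and 0.43 and -0.17 for shLacZ. The shSiva1 arrays were the highest of each line, and shSiva2 lay below all controls in LSZ2, while in LSZ4 replicate 2 lay below them and replicate 1 among them. Cflar was lower with shSiva2 by a log2 difference of -1.46 (SE 0.22, adjusted p = 2.9e-04). Its probes disagreed: a second probe of the same transcript gave -0.94, whereas a probe of another Cflar transcript (mm9 chr1:58789994-58790053) gave 0.22.

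Among the proteins that leave the mitochondrion, Aifm1 and Diablo were higher with shSiva2. Aifm1, the apoptosis-inducing factor, read 4.14 and 4.34 with shSiva1 and 4.74 and 4.69 with shSiva2 in LSZ2, where shGFP gave 4.33 and shLacZ 4.46 and 4.62. In LSZ4 Aifm1 read 4.07 and 4.14 with shSiva1, 4.75 and 4.46 with shSiva2, 4.47 and 4.45 with shGFP and 4.46 and 4.58 with shLacZ. The hairpins did not overlap in either line, and Aifm1 differed by 0.49 (SE 0.13, adjusted p = 0.0132). With quantile scaling it did not pass (adjusted p = 0.0648).

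Diablo, whose protein Smac blocks the inhibitor of apoptosis proteins, read 1.70 and 1.99 with shSiva1 and 2.34 and 2.33 with shSiva2 in LSZ2, and 2.21 with shGFP and 2.31 and 2.51 with shLacZ. In LSZ4 Diablo read 1.76 and 2.24 with shSiva1, 2.66 and 3.15 with shSiva2, 3.44 and 3.43 with shGFP and 2.37 and 2.98 with shLacZ. All 4 shSiva1 arrays were the lowest of their lines. Diablo differed by 0.69 between the hairpins (SE 0.22, adjusted p = 0.038), a call lost without LSZ2 shLacZ replicate 1, LSZ2 shSiva1 replicate 1, either LSZ4 shSiva1 array, either LSZ2 shSiva2 array or LSZ4 shSiva2 replicate 2 (highest adjusted p = 0.122). Bcl2l2, Casp6, Cflar, Bcl2, Bad, Bmf and Aifm1 kept their calls with any single array left out. Bok and Diablo did not pass with the random block (adjusted p = 0.0628 and 0.0505), and Bok and Casp9 did not pass with normexp background correction (0.087 and 0.0864) or without the filter (0.0778 and 0.0539), nor did Diablo (0.0667).

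Each hairpin was also set against all 7 control arrays, a pair of comparisons that share their controls. With shSiva1, 3 members were higher and 5 lower, beside 24.7% of all genes that passed (10.4% higher, 14.3% lower). These were Casp6 (1.05, adjusted p = 1.8e-05), Cflar (1.01, adjusted p = 0.00525) and Bcl2 (0.35, adjusted p = 0.0458) above control, and Bad (-1.05, adjusted p = 0.00612), Diablo (-0.79, adjusted p = 0.0134), Bcl2l2 (-0.69, adjusted p = 0.00081), Fadd (-0.67, adjusted p = 0.0383) and Casp2 (-0.53, adjusted p = 0.00557) below. The probe of another Cflar transcript gave 0.003 for both Siva hairpins pooled against control, where the probe used gave 0.28. With shSiva2, 2 members were higher and 2 lower, beside 11.9% of all genes (6.08% higher, 5.86% lower). Bid (0.93, adjusted p = 0.00247) and Birc3, an inhibitor of apoptosis protein and NF-kB target (0.65, adjusted p = 0.0176), were above control, and Fadd (-0.82, adjusted p = 0.0254) and Casp2 (-0.44, adjusted p = 0.0265) below. A second Birc3 probe, well above background on 11 arrays, gave 0.21 for both Siva hairpins pooled against control, where the probe used gave 0.46. These other probes of Cflar and Birc3 were not fitted against control for a single Siva hairpin.

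**Figure D4:**
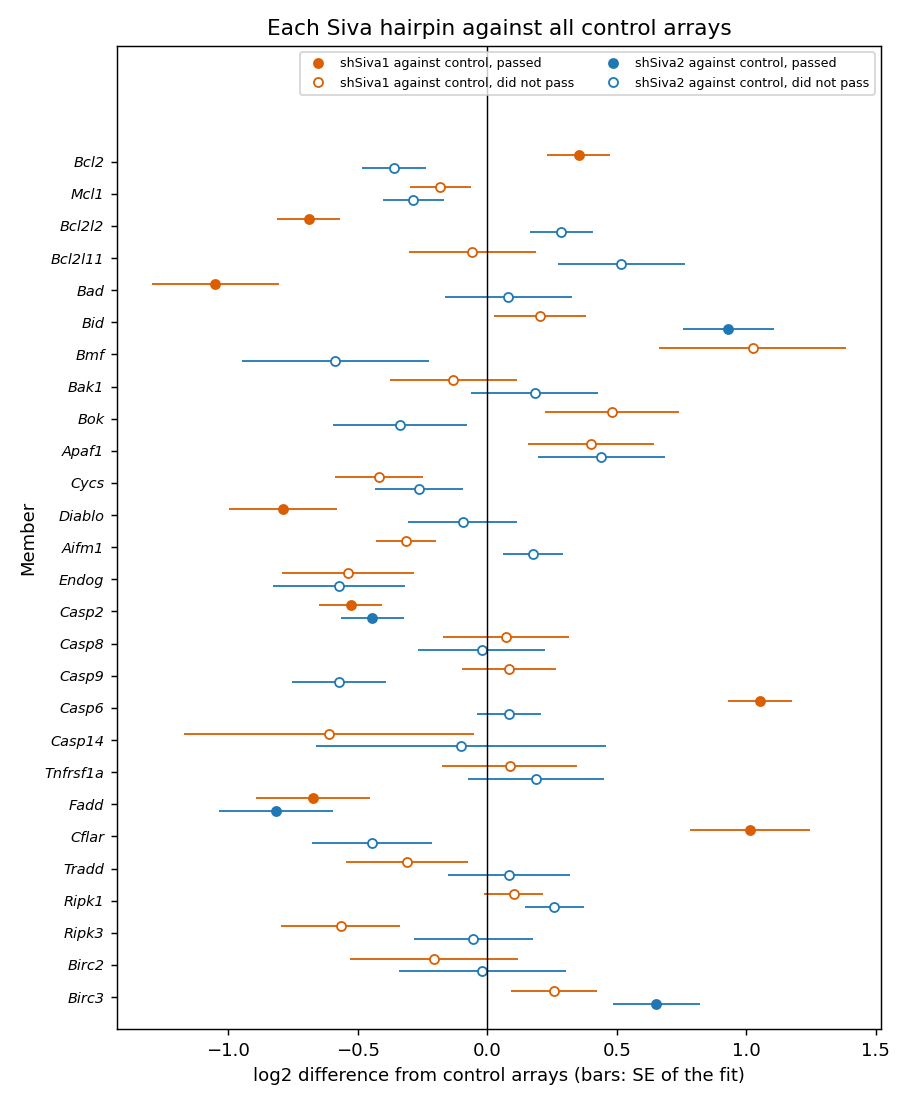
Log2 differences of the shSiva1 arrays (orange) and the shSiva2 arrays (blue) from the 7 control arrays, with bars for the SE of the fit; filled points passed the test and open points did not. Casp2 and Fadd lie left of 0 with both hairpins, while Bcl2 and Bcl2l2 lie on opposite sides of 0. Other probes of Cflar and Birc3, which gave other values, are not shown.

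Which members passed changed when each control hairpin was taken alone. The model changed as well, from line and arm to line and the 4 hairpins, so the part of the controls by themselves was not tested. Against shGFP, which was selected with puromycin as the Siva hairpins were, 3 members were higher and 5 lower, beside 20.4% of all genes (7.11% higher, 13.3% lower) and with a median of -0.17 for the members and -0.21 for all genes. Against shLacZ, which was not selected, 2 were higher and 1 lower, beside 11.1% of all genes (7.04% higher, 4.02% lower), with medians of -0.11 and -0.03. Casp2 passed in both (-0.52 and -0.46, adjusted p = 0.0162 and 0.0204), and so did Casp6 (0.63 and 0.52, adjusted p = 0.00602 and 0.00981). Against all controls, however, Casp6 did not pass with the Siva hairpins pooled (0.57), and it passed with shSiva1 but not with shSiva2. Fadd (-0.98, adjusted p = 0.0102) passed against shGFP, where Apaf1, Birc3, Bad, Diablo and Endog passed too, and Bid (0.66, adjusted p = 0.0205) passed against shLacZ. Between shLacZ and shGFP themselves, 0 of 27 members passed under limma, beside 1 gene or 0.00437% of all genes, and 4 members had an unadjusted p under 0.05 (Apaf1, Casp8, Cflar and Birc3). LSZ2 with shGFP had 1 array, so that 2 of the 3 shGFP arrays were of LSZ4. The number of members that passed against shGFP ran from 1, without LSZ4 shGFP replicate 2, to 12 without LSZ2 shGFP, beside 6.22% and 39% of all genes. Against shLacZ it ran from 1, without LSZ2 shLacZ replicate 2, to 4 without LSZ2 shGFP, beside 8.41% and 12.7% of all genes.

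Apaf1, the scaffold of the apoptosome, read -0.77 with shGFP, -0.73 and -0.44 with shLacZ, -0.37 and -0.57 with shSiva1 and -0.45 and -0.36 with shSiva2 in LSZ2. In LSZ4 Apaf1 read -2.10 and -2.10 with shGFP, -0.85 and -1.5 with shLacZ, -0.66 and -1.42 with shSiva1 and -0.65 and -1.41 with shSiva2. Its difference from shGFP (0.80, SE 0.22, adjusted p = 0.025) came with LSZ4 shGFP arrays that lay below all others. That call was lost without LSZ4 shGFP replicate 1 or replicate 2 (adjusted p = 0.12 and 0.14).

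Endog, a mitochondrial nuclease, read 1.99 with shGFP, 2.01 and 2.32 with shLacZ, 1.84 and 2.20 with shSiva1 and 1.84 and 1.74 with shSiva2 in LSZ2. In LSZ4 Endog read 3.33 and 3.41 with shGFP, 2.18 and 2.98 with shLacZ, 1.62 and 2.45 with shSiva1 and 1.93 and 2.47 with shSiva2. The LSZ4 shGFP arrays were the highest. Endog was lower than with shGFP (-0.82, SE 0.26, adjusted p = 0.0425), as were Bad (-0.78, adjusted p = 0.0405) and Diablo (-0.67, adjusted p = 0.0399). These 3 calls were lost without either LSZ4 shGFP array, either LSZ2 shLacZ array, LSZ2 shSiva1 replicate 1, LSZ4 shSiva1 replicate 1, either LSZ2 shSiva2 array or LSZ4 shSiva2 replicate 1, and that of Diablo also without LSZ4 shSiva1 replicate 2 (highest adjusted p = 0.225).

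Birc3 read -2.98 with shGFP, -2.66 and -2.56 with shLacZ, -2.61 and -2.71 with shSiva1 and -2.31 and -2.27 with shSiva2 in LSZ2. In LSZ4 Birc3 read -3.16 and -3.45 with shGFP, -2.77 and -3.1 with shLacZ, -2.58 and -2.83 with shSiva1 and -1.98 and -2.58 with shSiva2. The shGFP arrays were the lowest of each line. Birc3 was higher than with shGFP by 0.68 (SE 0.16, adjusted p = 0.01), a call lost without LSZ4 shGFP replicate 2 (adjusted p = 0.0798). The other Birc3 probe gave 0.43 against shGFP, and the call was lost with the mean of all probes and with normexp background correction. Between the Siva hairpins the other probe gave -0.17 where this one gave 0.40, neither of which is a call. Against shGFP the calls of Casp2 and Fadd did not survive removal of LSZ4 shGFP replicate 1 or of replicate 2 (adjusted p up to 0.0935 and 0.0805). Against shLacZ that of Casp2 was lost without LSZ2 shLacZ replicate 2 or LSZ4 shLacZ replicate 2 (highest adjusted p = 0.0749), and that of Bid without either LSZ2 shLacZ array or LSZ4 shLacZ replicate 1 (highest adjusted p = 0.0748).

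The lines differed for 8 of 27 members, 6 higher and 2 lower in LSZ4, beside 20.3% of all genes that passed (13.3% higher, 7.04% lower). The median difference was 0.26 for the members and 0.23 for all genes. Ripk3, the kinase that carries out necroptosis, led them. Ripk3 in LSZ2 ran from 0.86 to 1.75 with a median of 1.24 over 7 arrays, and in LSZ4 from 2.98 to 4.35 with a median of 3.86 over 8 arrays. It was the only member whose LSZ4 arrays all lay above all LSZ2 arrays, a pattern not counted over all genes. By hairpin, Ripk3 read 1.49 with shGFP, 1.5 and 1.75 with shLacZ, 0.86 and 1.22 with shSiva1 and 1.24 and 1.10 with shSiva2 in LSZ2, and 4.28 and 4.2, 3.1 and 3.80, 2.98 and 3.48, and 3.91 and 4.35 in LSZ4, in the same order. The fitted difference was 2.43 (SE 0.21, adjusted p = 2.1e-06), a 5.40-fold difference, or 2.20 relative to the median of all genes. The call held with any array left out and under the other 11 alternatives tried, with values between 1.86 and 2.55.

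The window before the start of Ripk3, the member that separated the lines, is shown beside its values. It lies at chr14:55788858-55789107 on the minus strand of GRCm38.p6 (RefSeq), printed 5′ to 3′ with the GC box (GGGCGG) and the E-box (CACGTG), on either strand, in capitals.
Ripk3 promoter: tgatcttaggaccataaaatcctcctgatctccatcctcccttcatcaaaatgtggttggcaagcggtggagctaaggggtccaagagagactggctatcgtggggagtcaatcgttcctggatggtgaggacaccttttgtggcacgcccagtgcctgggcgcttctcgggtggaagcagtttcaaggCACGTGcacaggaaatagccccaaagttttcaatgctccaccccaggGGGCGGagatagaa
It held 1 GC box and 1 E-box, a palindrome that 6.02% of all 32851 windows held.

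The other 7 members that passed between the lines did so less firmly. Mcl1, the short-lived anti-death gene, read 4.55, 4.68, 4.75, 4.48, 4.70, 4.42 and 4.41 in LSZ2, and 5.28 and 5.16 with shGFP, 4.98 and 5.17 with shLacZ, 4.72 and 5.0 with shSiva1 and 4.86 and 4.80 with shSiva2 in LSZ4. The groups met only at LSZ4 shSiva1 replicate 1, and the difference was 0.41 (SE 0.10, adjusted p = 0.0215), or 0.18 relative to all genes. Casp8, the initiator of the receptor route, read 2.96 with shGFP, 2.96 and 2.99 with shLacZ, 2.99 and 2.97 with shSiva1 and 2.96 and 3.05 with shSiva2 in LSZ2. In LSZ4 Casp8 read 1.76 and 1.80 with shGFP, 3.06 and 2.58 with shLacZ, 2.78 and 2.08 with shSiva1 and 2.67 and 1.78 with shSiva2, a spread of 1.30 between the highest and lowest array where LSZ2 had one of 0.093. Its difference was -0.67 (SE 0.20, adjusted p = 0.0369).

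Tradd, the adaptor of tumour necrosis factor receptor 1, read 4.19 with shGFP, 4.26 and 4.39 with shLacZ, 4.03 and 4.45 with shSiva1 and 4.54 and 4.39 with shSiva2 in LSZ2. In LSZ4 Tradd read 5.58 and 5.63, 4.33 and 4.96, 4.25 and 4.88, and 4.92 and 5.34 in the same order, and 6 of 8 LSZ4 arrays lay above all LSZ2 arrays. Tradd was higher in LSZ4 by 0.65 (SE 0.21, adjusted p = 0.0413). The others were Bmf (1.43, adjusted p = 0.0338), Bok (0.88, adjusted p = 0.0352) and Casp6 (0.80, adjusted p = 0.0238), higher in LSZ4, and Apaf1 (-0.78, adjusted p = 0.0222), lower. Relative to the median of all genes the 7 ranged from -1.01 for Apaf1 to 1.2 for Bmf.

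None of these 7 passed with line and hairpin group as a random block (adjusted p from 0.0516 to 0.118), nor with the brightness of the array as a term. LSZ4 arrays included the dimmest, and with brightness as a term the line difference of Tradd went from 0.65 to 0.01 and that of Casp8 from -0.67 to -0.10, while Ripk3 passed. Mcl1 and Casp6 lost their calls without LSZ2 shGFP or LSZ2 shLacZ replicate 1 (highest adjusted p = 0.0624 and 0.064), and Apaf1 without any of the 3 LSZ2 control arrays (highest adjusted p = 0.0555). Bok and Casp8 kept theirs only without LSZ2 shSiva1 replicate 2, LSZ4 shLacZ replicate 1, LSZ4 shSiva1 replicate 1 or LSZ4 shSiva2 replicate 1 (highest adjusted p = 0.0852 and 0.0824). Tradd kept its call only without LSZ2 shSiva1 replicate 2, LSZ2 shSiva2 replicate 1, LSZ4 shLacZ replicate 1 or LSZ4 shSiva1 replicate 1 (highest adjusted p = 0.0955). Bmf lost its call without LSZ2 shGFP, either LSZ4 shGFP array, LSZ2 shLacZ replicate 1, either LSZ2 shSiva2 array, LSZ4 shSiva1 replicate 2 or LSZ4 shSiva2 replicate 2 (highest adjusted p = 0.084). Without LSZ4 shLacZ replicate 1 or LSZ4 shSiva1 replicate 1, 16 and 17 members passed, beside 52.6% and 49.4% of all genes. Without LSZ2 shGFP or LSZ2 shLacZ replicate 1 a single member, 1 of 27, passed, beside 5.52% and 5.47% of all genes.

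The 7 tested members that passed none of the 9 planned comparisons were Bcl2l11, Bak1, Casp14, Cycs, Ripk1, Birc2 and Tnfrsf1a. Ripk1, the kinase upstream of Ripk3, read between 1.77 and 2.21 on all 15 arrays, and its line difference of 0.03 had a 95% interval of -0.19 to 0.25. Tnfrsf1a, tumour necrosis factor receptor 1, ran from 4.02 to 5.54, cytochrome c (Cycs) from 6.65 to 7.77 and Birc2, an inhibitor of apoptosis protein, from -1.36 to 0.44. Casp14, a caspase of the epidermis, ran from -4.67 to -1.24 and had the largest standard deviation within groups, 1.14, against 0.087 for Bcl2, the smallest.

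Of the 7 members that were not tested, Bik, Hrk, Casp12, Fasl and Tnfsf10 were well above background on 0 of 15 arrays. Casp1, the inflammatory caspase that matures interleukin-1 beta, was the exception. It was well above background on both LSZ4 shSiva1 arrays, at -2.63 and -3.64, and not well above background on the other 13, with -4.77 and -4.58 on the LSZ4 shSiva2 arrays and -6.29, -6.34, -6.97 and -6.58 on the LSZ4 controls. In LSZ2 Casp1 lay between -7.48 and -6.31. Since no LSZ4 control array measured it, Casp1 was set against the higher, per array, of its own value and the lowest signal well above background. It was 2.64-fold above that level with shSiva1 in LSZ4 (mean -3.13 ± 0.72, SD, n = 2). The level is not a strict limit. On LSZ4 shGFP replicate 2 a probe of Casp4 read -4.31 without being well above background, where the lowest signal that was read -4.32. With shSiva2 in LSZ4 neither array measured Casp1, and no fold is given. Casp4, its neighbour in the inflammatory caspase family, was well above background on 1 array, LSZ4 shSiva1 replicate 1, with both of its probes (-4.71 and -4.47).

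The 250 bases before the start of Casp1, the member that stood above background in a single group, lie at chr9:5298267-5298516 on the plus strand of GRCm38.p6 (RefSeq), with the E-box (CACGTG) in capitals.
Casp1 promoter: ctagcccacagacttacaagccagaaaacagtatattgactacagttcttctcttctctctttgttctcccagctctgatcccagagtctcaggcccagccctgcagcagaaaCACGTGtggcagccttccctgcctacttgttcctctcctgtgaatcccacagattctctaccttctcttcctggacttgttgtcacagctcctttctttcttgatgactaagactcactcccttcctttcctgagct
The window held 1 E-box and no GC box, CCAAT box or match to the core of the interferon-stimulated response element, which 2.98% of all windows held. RefSeq gave a promoter for 32 of the 34 members, all but Bik and Tradd. Over these 32, on either strand, the GC box was in 19, the CCAAT box in 11, the ETS core (CCGGAA) in 8, the gamma-activated site (TTCNNNGAA) in 3, the E-box in 2, the TATA box (TATAAA) in 1, and the interferon core and the AP-1 site (TGANTCA) in 0. Of all windows, 12.0% held the ETS core, 7.02% the gamma-activated site, 12.4% the TATA box and 6.75% the AP-1 site.

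The wider death pathway was given by 46 further genes, of which 41 were tested. With Siva hairpins 2 were higher and 2 lower, 9.76% beside 9.55% of all genes. Siva1, the target of the hairpins, was among those lower, so its call does not speak to the wider pathway. Tnfaip3, which restrains signalling from tumour necrosis factor receptors, was higher by 1.38 (adjusted p = 1.1e-05) and the death receptor gene Fas by 1.52 (adjusted p = 0.0146), while Siva1 fell by 2.51 (adjusted p = 3.6e-05) and Tnfrsf21, death receptor 6, by 0.88 (adjusted p = 0.0162). Against control, Tnfaip3 and Siva1 passed with each Siva hairpin alone. Fas (1.79) and Tnfrsf21 (-1.27) passed with shSiva1 and not with shSiva2. Tnfrsf21 also differed between the Siva hairpins (0.79, adjusted p = 0.0125), and Fas passed in LSZ4 (2.12) but not in LSZ2. Between the Siva hairpins 12, with Siva1 among them, were higher and 3 lower with shSiva2, 36.6% beside 20.8% of all genes. Those with the smallest p were Traf1, a signalling adaptor of tumour necrosis factor receptors (-5.04, SE 0.27), Bcl2l13 (1.74), the pyroptosis gene Gsdmd (1.42) and Bcl2l14 (-2.17). Between the lines 7 were higher and 4 lower in LSZ4, 26.8% beside 20.3% of all genes, with Tnfaip3 (-1.05), Fas (-1.88) and the adaptor gene Cradd (0.93) having the smallest p.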

How the data were processed

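Single-colour Agilent arrays of 15 RNA samples were scanned by the authors, and per the file headers Feature Extraction 10.7.3.1 read the spots. Its processed signal is an intensity that the authors deposited after background subtraction; spots flagged as outliers and control spots were left out. The authors' deposited value table holds log2 values of that signal less each array's 75th percentile with every probe centred on its median. It matched the scanner files within 0.01 for at least 99.6% of values on each array, its column medians ran from -0.26 to 0.53, and it served as an alternative.

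Log2 intensity less each array's 75th percentile was averaged over spots of a probe. Symbols were updated by accession for 26582 of 55681 probes and kept as in the files for 29099. A gene took its probe with the highest mean among those well above background on at least 4 arrays. Genes were tested with limma 3.58.1 in R 4.3.3, with 1 model over all 15 arrays per comparison and Benjamini-Hochberg adjustment over 22908 genes, at 0.05. The models held line and arm, each line and arm, or line and the 4 hairpins, for 9 planned comparisons; the 2 of each Siva hairpin against all controls were chosen after seeing the data. The scripts were tested on simulated data.

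Members that passed any planned comparison are given with their values, and of the wider list the 4 with the smallest p; a gene of that list and a marker are not reported here. The members and lists were chosen with earlier results of these data known. Alternatives were other scalings, normexp background correction, other filters, the mean of probes, replicate or group as a block, a mean for each of the 8 groups, array brightness as a term and each array left out. Protein sequences were not used here. Promoters are from RefSeq (GRCm38.p6); probe positions are in mm9.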

Additional observations from a re-analysis of the deposited data

Results flagged for a closer look

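In groups of 4 arrays of one line and arm, 5 of 81 member groups held an array far from the other 3, by Dixon's test at its 95% critical value, which chance gives in about 1 of 20. Bid read 2.00 on LSZ4 shLacZ replicate 1, against 2.56 to 2.66 on the other LSZ4 controls. Cycs read 7.22 on the same array, against 7.71 to 7.77. Aifm1 read 4.58 on LSZ4 shLacZ replicate 2, against 4.45 to 4.47. Fadd read 1.69 on LSZ2 shSiva1 replicate 2, against 1.22 to 1.26 on the other LSZ2 shSiva arrays, and Birc2 read -0.92 on that array, against -0.10 to -0.05.

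Casp1 and Casp4 did not enter the tests and stood well above background on some arrays. Casp1 read -2.63 and -3.64 on the LSZ4 shSiva1 arrays, where the highest control array of either line read -6.29. Casp4 read -4.71 with the first of its probes on LSZ4 shSiva1 replicate 1, above the highest control value of -5.35. Its second probe read -4.47 there, below the highest control value of -4.31, which was not well above background.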

How the results depend on the processing

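No named result changed direction under any alternative. Of 40 named results, 18 no longer passed with each group of line and hairpin taken as a random block, 14 with normexp background correction, 8 without the filter, 7 with array brightness as a term, 6 with quantile scaling, 5 with the mean of all probes, 4 with 1 mean for each of the 8 groups, 3 with median scaling, and 0 with the authors' value table, with a filter on all 15 arrays or with the replicate number as a block. The cause was not tested.

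The number of members that passed for shSiva against control was 2, and it was 5 with quantile scaling, 0 with the random block, 5 with a mean for each of the 8 groups, 10 with brightness as a term, 8 with the shSiva1 arrays alone and 4 with the shSiva2 arrays alone. For shSiva against control in LSZ2 it was 2 with a mean for each group and 4 with brightness, in place of 0. For shSiva against control in LSZ4 it was 1 with quantile scaling, 4 with normexp, 0 with the random block, 7 with a mean for each group and 4 with brightness, in place of 2. For LSZ4 against LSZ2 it was 4 with normexp, 1 with the random block, 16 with a mean for each group and 2 with brightness, in place of 8. For shSiva2 against shSiva1 it was 17 with brightness in place of 11. For shSiva against shGFP it was 5 with median scaling, 3 with normexp, 5 without the filter, 5 with the mean of probes, 5 with the random block, 4 with a mean for each group and 13 with brightness, in place of 8. For shSiva against shLacZ it was 0 with normexp and 11 with brightness, in place of 3. Calls over all genes moved under these settings too, as given here and below. With quantile scaling, shSiva against control gave 1578 higher and 1587 lower calls over all genes, in place of 1005 and 1183.

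With the replicate number as a block the count was 4 for shSiva against control in LSZ4 and 14 for shSiva against shGFP. The labels do not say whether equal numbers pair the samples. The replicate 1 less replicate 2 differences were correlated between groups, over 21 pairs of groups. Of these, 14 correlations were above 0.1, with a range from -0.21 to 0.73.

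With each array left out in turn the count ran from 2 to 4 for shSiva against control, 0 to 0 in LSZ2, 0 to 7 in LSZ4, 0 to 0 for the difference between lines, 1 to 17 for LSZ4 against LSZ2, 8 to 11 for shSiva2 against shSiva1, 0 to 0 for shLacZ against shGFP, 1 to 12 for shSiva against shGFP and 1 to 4 for shSiva against shLacZ. The share of all genes that passed moved as well. It ran from 6.49% to 15.8% for shSiva against control, 0.314% to 1.64% in LSZ2 and 2.12% to 25.3% in LSZ4. For LSZ4 against LSZ2 it ran from 5.47% to 52.6%, and for shSiva2 against shSiva1 from 16.1% to 24.2%. Against shGFP it ran from 6.22% to 39% and against shLacZ from 7.77% to 12.7%.

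Over all genes, shSiva against control gave 2188 calls, and 5656 with the shSiva1 arrays alone, 838 with normexp, 901 with the random block, 4478 with a mean for each group and 6658 with brightness. LSZ4 against LSZ2 gave 4656, and 2061, 979, 11167 and 1002 under the last 4 of these settings, and 8382 without the filter. For shSiva against control in LSZ2 the 212 calls became 403 with quantile scaling, 85 with normexp, 72 with the random block, 1311 with a mean for each group, 1877 with brightness and 124 with a filter on all 15 arrays. For shSiva against control in LSZ4 the 977 became 1553, 548, 264, 3633 and 3931 in that order, and 640 without the filter. The 4775 calls of shSiva2 against shSiva1 became 9802 with brightness, the 4680 of shSiva against shGFP 1469 with normexp and 9876 with the replicate block, and the 2532 of shSiva against shLacZ 3890 with quantile scaling, 1176 with normexp and 8964 with brightness. The share of calls that were higher moved from 45.9% to 56.0% with normexp for shSiva against control, from 55.5% to 43.2% with normexp for shSiva against control in LSZ4, and from 65.4% to 54.5% with quantile scaling for LSZ4 against LSZ2. The median of all genes was -0.11, -0.17, 0.23 and 0.14 for shSiva against control, the same in LSZ4, LSZ4 against LSZ2 and shSiva2 against shSiva1. No member that passed changed side when it was subtracted.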
